A study of Mus musculus with 12 samples.

Results

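The genes described here are 6 matrix metalloproteinases, Mmp2, Mmp3, Mmp7, Mmp9, Mmp13 and Mmp14, and 3 tissue inhibitors of metalloproteinases, Timp1, Timp2 and Timp3. They are 9 of the 24452 genes in the deposited count table and were taken as a named set, chosen by their values in glomerulonephritis, where Mmp13 was low and Timp1 was high. Differences of these 9 genes between glomerulonephritis and control are therefore given as a description, with no test. The 12 libraries are stranded mRNA-seq of kidney cortex from adult C57BL/6 mice, with 3 libraries in each of 4 groups, and all mice are labelled male. GN_captopril and GN_water are libraries of mice with chronic glomerulonephritis (GN), an inflammation of the glomeruli, given captopril or water. Control_captopril and Control_water are libraries of mice without it, given captopril or water. GN was induced with 10 mg of horse spleen apoferritin 5 times a week for 6 weeks, with 100 micrograms of lipopolysaccharide as adjuvant 3 times a week, both injected into the peritoneum. Controls had saline on that schedule, and kidneys were taken at 9 weeks. Captopril inhibits angiotensin-converting enzyme; its dose is not given in the labels. Each title carries a pair of numbers, but it is not stated if 1 mouse or several went into each library, so the p-values measure the spread between these libraries, which may be partly technical.

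Matrix metalloproteinases are zinc-dependent proteases made as inactive proenzymes that cleave collagens, other matrix proteins and many cell-surface and secreted proteins. The tissue inhibitors bind their active sites, and the balance between the proteases and the inhibitors sets how fast matrix turns over. In the kidney, both are known for their part in glomerular and interstitial scarring, where an excess of inhibitor over collagenase goes with matrix build-up.

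Mmp13, Mmp3 and Mmp7 lie on chromosome 9 of GRCm38, within 1 cluster of metalloproteinase genes, and all are transcribed from the plus strand. Mmp13 spans chr9:7272514-7283331, Mmp3 chr9:7445822-7455975 and Mmp7 chr9:7692090-7699585. These 3 genes gave the largest differences in GN among the 6 proteases, and Mmp13 went the opposite way to the other two. The 80 bases before each start site are shown because all 3 hold an AP-1 motif there. The stretches come from RefSeq's annotation of GRCm38.p6, at chr9:7272434-7272513, chr9:7445742-7445821 and chr9:7692010-7692089, plus strand. Capitals mark the letters TGANTCA, the AP-1 motif, and TATAAA, the TATA motif.

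Mmp13: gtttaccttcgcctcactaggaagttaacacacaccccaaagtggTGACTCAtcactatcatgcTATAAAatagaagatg
Mmp3: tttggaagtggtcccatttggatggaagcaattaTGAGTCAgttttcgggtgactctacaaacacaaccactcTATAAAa
Mmp7: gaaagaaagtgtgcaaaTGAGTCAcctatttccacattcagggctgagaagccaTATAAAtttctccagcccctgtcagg

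The first base of the AP-1 letters lies 35 bases before the start site in Mmp13, 46 before it in Mmp3 and 63 before it in Mmp7. Windows of 300 bases (250 before and 50 after the start site) were searched on both strands for 7 of the 9 genes. Mmp2 and Mmp9 had no window and were not searched. None of Mmp14, Timp1, Timp2 and Timp3 held TGANTCA, which stood in 7.808% of all 32851 windows. The RUNX letters AACCACA were found in Mmp13 and in none of the other 6, and in 5.269% of all windows. The ETS (PEA3) letters AGGAAG were found in 6 of the 7, all but Timp2, and in 35.351% of all windows. TATAAA stood in Mmp3, Mmp7 and Mmp13, against 13.616% of all windows. The 3 genes thus shared the AP-1 and TATA letters while Mmp13 was lower and Mmp3 and Mmp7 were higher in GN. A match describes the letters and not a bound site.

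Total counts ran from 14173432 to 22842783 per library. All 11 of 11 kidney cortex markers were detected in every group. The sex label was not borne out in 6 of the 12 libraries. Summed Y-linked transcripts (4 genes) stood at 124 to 129 CPM (per-million counts, scaled to the total of each library) in GN_captopril, at most 0.0458 in GN_water, at most 0.101 in Control_captopril and 121 to 144 in Control_water. Xist, made from the inactive X chromosome, was at 181 to 212 CPM in GN_water and 314 to 375 CPM in Control_captopril, and at most 0.182 CPM in GN_captopril and Control_water. Ren1, the renin gene, which is known to rise under this class of drug, was at 438 to 691 CPM in GN_captopril against 20.8 to 30.2 CPM in GN_water, but at 63.4 to 82.8 CPM in Control_captopril against 1083 to 1794 CPM in Control_water. Groups are named here as labelled and none was moved. GN_captopril against GN_water, and Control_captopril against Control_water, therefore each set Y-linked libraries against Xist libraries, and treatment and sex cannot be told apart in either; the averages over GN and over captopril are balanced for sex-linked transcripts. Summed adrenal cortex markers (10 genes) reached 422 CPM in Control_captopril replicate 3 and 199 CPM in GN_captopril replicate 3, against 54.6 to 109 CPM in the other libraries. Those lower sums were mostly Fdx1, at 51.8 to 88.9 CPM in every library. Hsd3b1, another of the 10, was also at 4.17 CPM in GN_captopril replicate 2 and 1.70 CPM in Control_captopril replicate 1. It was at most 0.0607 CPM in every water library. Leaving out both adrenal-rich libraries therefore does not remove all adrenal transcripts. GN_captopril replicate 3 also had the highest sum of 7 fat markers, 427 CPM.

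On a scale of CPM per kilobase of exon, which allows genes to be set beside each other, the inhibitors Timp3 and Timp2 were the most abundant of the 9. Over the 12 libraries the level averaged 292 for Timp3, 22.8 for Timp2, 4.23 for Mmp14, 3.10 for Mmp2 and 2.68 for Timp1. It averaged 0.598 for Mmp3, 0.585 for Mmp13, 0.520 for Mmp7 and 0.446 for Mmp9. The lowest library of Timp3 (215) lay above the highest of Timp2 (36.9), and the lowest of Timp2 (15.6) above the highest of Mmp14 (8.27). From Mmp14 downward the ranges of neighbouring genes overlapped over the 12 libraries, although Mmp14 was above Mmp2 in each of the 12. The order differed between groups. Timp1 stood the fourth of the 9, at a mean of 3.07 in GN_captopril and 6.46 in GN_water, and the sixth in controls, at 0.579 in Control_captopril and 0.599 in Control_water. Mmp13 stood the ninth, at 0.200 in GN_captopril and 0.121 in GN_water, and the fifth in controls, at 1.11 in Control_captopril and 0.916 in Control_water. Mmp7 stood the eighth in GN_captopril at 0.391 and the sixth in GN_water at 1.53, and the ninth in controls, at 0.0424 in Control_captopril and 0.110 in Control_water. In each of the 6 GN libraries Timp1 was above Mmp13, and in each of the 6 control libraries it was below.

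**Figure D1:**
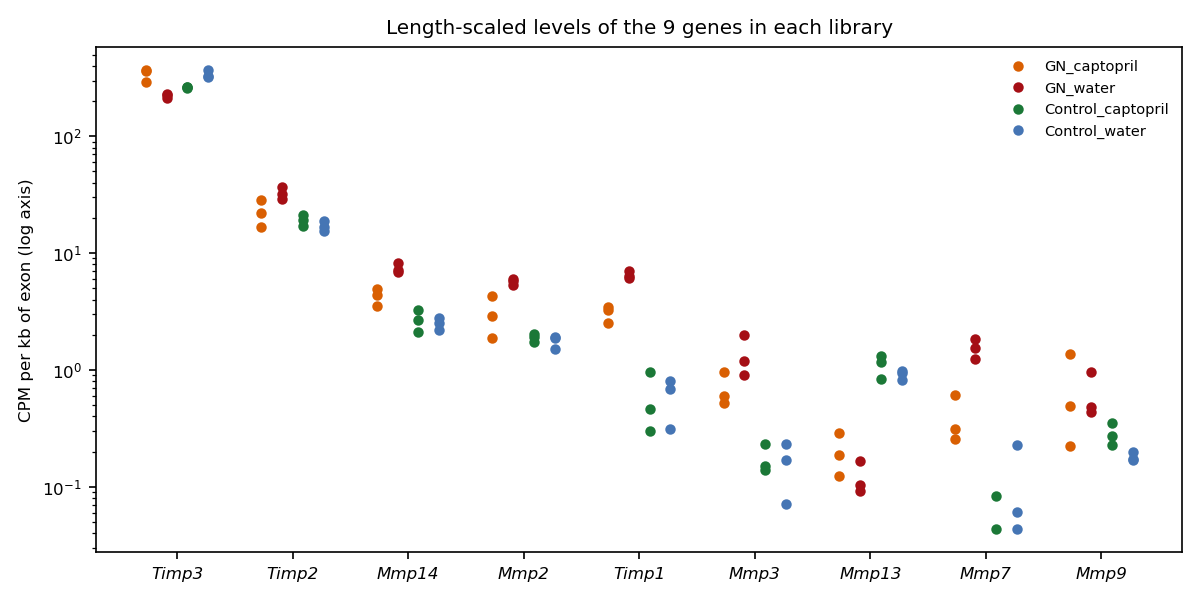
Level of each of the 9 genes in each library, in CPM per kilobase of exon on a log axis, with genes ordered by their mean over 12 libraries and 1 point per library. Mmp7 was at 0 in 1 Control_captopril library, which a log axis cannot show. Timp3 averaged 292 and Mmp9 0.446, and Timp1 and Mmp13 exchange places between GN and control libraries.

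Mmp13, a collagenase that cleaves fibrillar collagens and serves as the main interstitial collagenase of rodents, was the 1 protease of the 6 that was lower in GN. It was at 0.332, 0.768 and 0.502 CPM in GN_captopril and at 0.275, 0.247 and 0.445 CPM in GN_water. Controls had 2.24, 3.13 and 3.49 CPM in Control_captopril and 2.51, 2.18 and 2.64 CPM in Control_water. Every GN library lay below every control library. The difference averaged over treatment labels was a log2 fold change of -2.67 ± 0.22 (SE, 6 GN against 6 control libraries), and it was -3.19 ± 0.31 for GN_water against Control_captopril and -2.15 ± 0.31 for GN_captopril against Control_water, the pairs matched for sex-linked transcripts. Counts were low: 26 and 21 in all for GN_captopril and GN_water, against 187 and 131 for Control_captopril and Control_water. With 1 GN library and all 6 control libraries above 0.523 CPM, the cutoff of the filter on low counts, Mmp13 passed it through the controls.

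Mmp3 (stromelysin-1), which cleaves many matrix proteins and activates other proenzymes, was at 1.73, 0.933 and 1.08 CPM in GN_captopril and 2.15, 3.62 and 1.63 CPM in GN_water. Controls had 0.269, 0.414 and 0.253 CPM in Control_captopril and 0.419, 0.303 and 0.129 CPM in Control_water. All 6 GN libraries were above all 6 control libraries, with a log2 fold change of 2.50 ± 0.31. Mmp7 (matrilysin), a small secreted protease known from injured tubule epithelium, was at 0.332, 0.274 and 0.646 CPM in GN_captopril and 1.97, 1.32 and 1.63 CPM in GN_water. In Control_captopril it had 0.0897, 0.0461 and 0 CPM and in Control_water 0.0466, 0.243 and 0.0645 CPM. The GN and control libraries did not overlap here either, but controls held 3 and 6 counts in all, against 19 and 108 in GN_captopril and GN_water. The log2 fold change, 3.37 ± 0.45, therefore rests on few control reads. Mmp3 and Mmp7 passed the filter on low counts only through GN libraries, with 6 and 4 of them above its cutoff of 0.523 CPM and 0 controls.

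Mmp14 (MT1-MMP), a membrane-bound collagenase that activates the Mmp2 proenzyme at the cell surface, was at 21.1, 26.1 and 29.3 CPM in GN_captopril and 42.7, 49.3 and 40.9 CPM in GN_water. It was at 12.6, 19.3 and 16.03 CPM in Control_captopril and 16.7, 13.1 and 15.1 CPM in Control_water. All GN libraries lay above all control libraries, with a log2 fold change of 1.12 ± 0.11. Mmp2 (gelatinase A), which degrades denatured collagen and basement membrane collagen, was at 6.31, 9.82 and 14.6 CPM in GN_captopril and 19.6, 20.3 and 17.9 CPM in GN_water. It was at 5.83, 6.86 and 6.42 CPM in Control_captopril and 6.42, 5.10 and 6.32 CPM in Control_water. The GN_water libraries stood clear of the controls, while GN_captopril replicate 1 lay within their range; the log2 fold change was 1.18 ± 0.15. Mmp9 (gelatinase B), the gelatinase stored by neutrophils and made by macrophages, was at 0.797, 1.76 and 4.81 CPM in GN_captopril and 1.70, 3.41 and 1.53 CPM in GN_water. It was at 0.808, 1.24 and 0.961 CPM in Control_captopril and 0.605, 0.607 and 0.709 CPM in Control_water. GN and control libraries overlapped, and the log2 fold change of 1.53 ± 0.38 ran from 1.08 to 1.73 when 1 library at a time was left out.

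Timp1, a secreted inhibitor known for its rise in injured and fibrotic tissue, lies on chrX:20870166-20874735. It was at 3.06, 2.25 and 2.87 CPM in GN_captopril and 6.19, 5.63 and 5.39 CPM in GN_water. Controls had 0.269, 0.414 and 0.860 CPM in Control_captopril and 0.279, 0.607 and 0.709 CPM in Control_water. Each GN library was above each control library, with a log2 fold change of 2.94 ± 0.24, and of 3.49 ± 0.32 and 2.39 ± 0.35 in GN_water against Control_captopril and GN_captopril against Control_water.

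Timp2, which inhibits Mmp2 and also forms the complex through which Mmp14 activates it, was at 64.9, 85.2 and 111 CPM in GN_captopril and 125, 144 and 114 CPM in GN_water. It was at 66.9, 82.4 and 74.8 CPM in Control_captopril and 64.9, 60.7 and 72.8 CPM in Control_water. GN_water was clear of both control groups and GN_captopril overlapped both, with a log2 fold change of 0.58 ± 0.11. Timp3, a matrix-bound inhibitor that also acts on ADAM proteases, lies on chr10:86300372-86349506. It was at 2926, 3010 and 2389 CPM in GN_captopril and 1883, 1842 and 1748 CPM in GN_water. It was at 2132, 2110 and 2162 CPM in Control_captopril and 2998, 2686 and 2633 CPM in Control_water. All 6 libraries with Y-linked transcripts lay above all 6 with Xist, a split that Ren1 shared, and within the Xist libraries GN_water lay below Control_captopril. The GN average was -0.11 ± 0.06, made of -0.23 ± 0.08 in the Xist pair, GN_water against Control_captopril, and 0.0016 ± 0.0791 in the Y-linked pair, GN_captopril against Control_water.

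**Figure D2:**
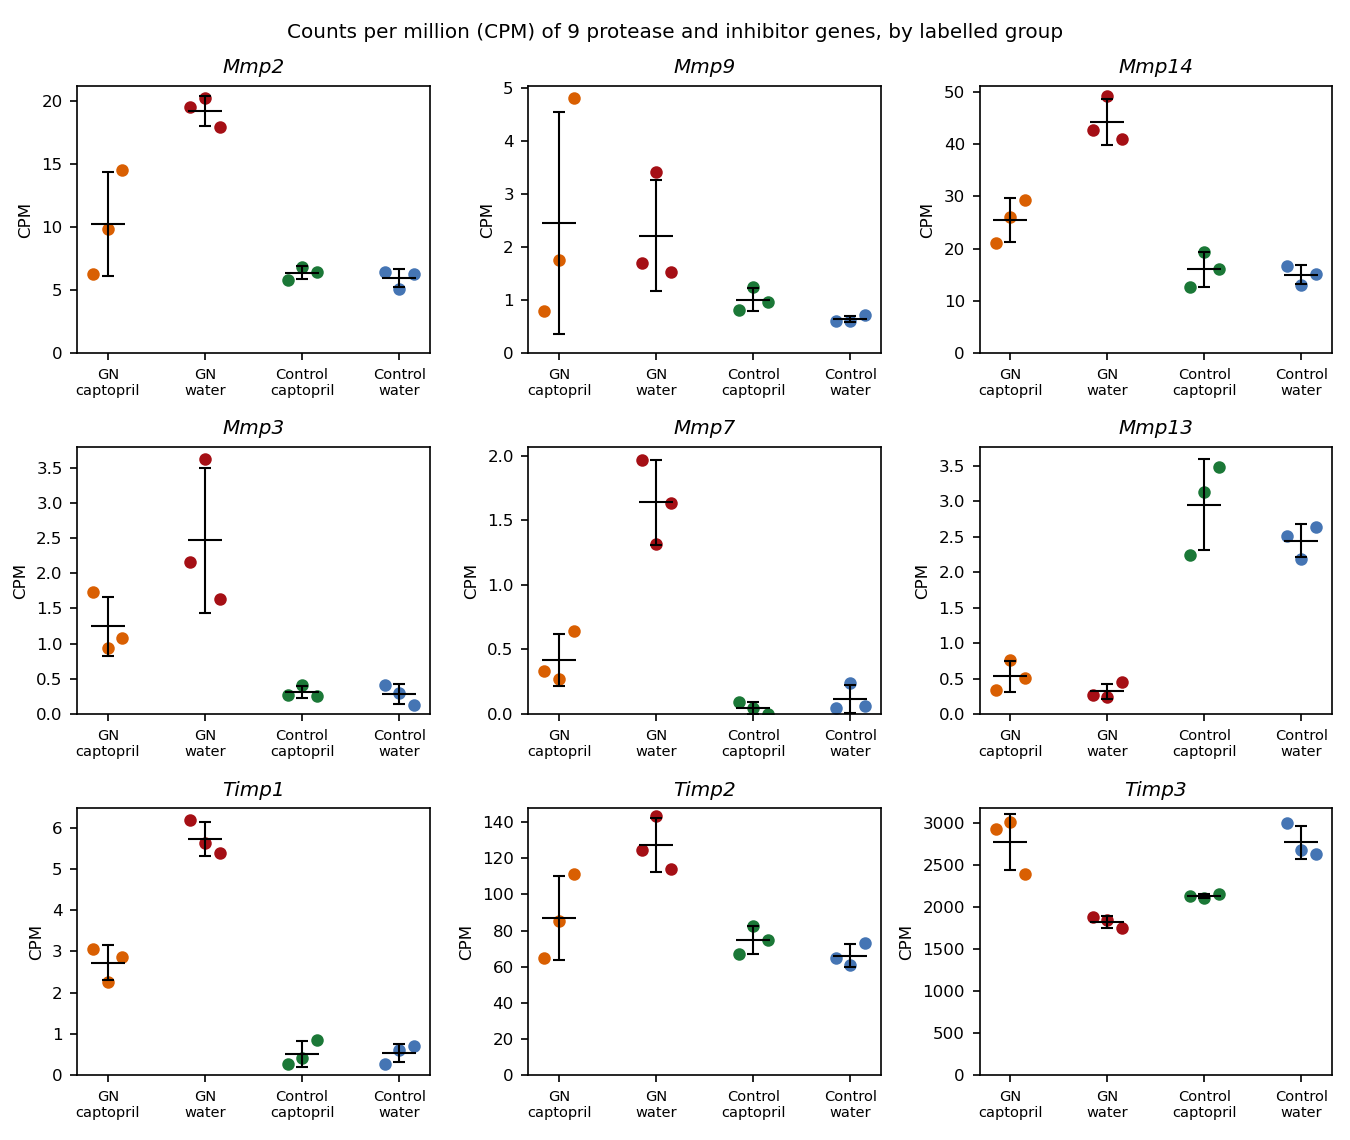
CPM of each of the 9 genes, with 1 point per library, 3 libraries in each labelled group, and a bar at the mean with its SD; each axis starts at 0. Mmp13 is low in all GN libraries, Timp1, Mmp3, Mmp7 and Mmp14 are high in them, and Timp3 is high in GN_captopril and Control_water.

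As a description only, 7 of the 9 lay above and 1 below 0 past the threshold used for all genes (edgeR adjusted p under 0.05) in the GN average, beside 16.3% of the 14618 tested genes called higher and 14.6% called lower; nothing is read from this count because the genes were chosen from that contrast. The median log2 fold change was 1.18 over the 9 and -0.01 over all tested genes. Markers of other cells also differed between GN and control. All 10 of 10 macrophage and monocyte markers were called higher in GN, with summed levels of 546 to 1083 CPM in GN_captopril, 1140 to 1608 in GN_water, 151 to 218 in Control_captopril and 180 to 192 in Control_water. Of 10 fibroblast and mesangial markers 7 were higher, with sums of 337 to 482, 551 to 706, 310 to 349 and 280 to 337 CPM in the same order of groups. Of 11 neutrophil markers the 4 that could be tested were higher, with sums of 6.64 to 10.1, 8.93 to 13.7, 2.11 to 2.44 and 2.64 to 3.70 CPM. Among them S100a8 was at most 0.451 CPM in controls, under the filter cutoff of 0.523 CPM. It could be tested only through GN libraries, where it is high, so this count is a description and supports nothing. The defining genes Elane, Mpo and Ly6g were at 0 or under 0.1 CPM in every library. The part of these cells in the levels of the 9 genes was not tested, and in bulk tissue fewer cells of a type and less RNA per cell cannot be told apart.

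Within GN, the comparison of captopril with water asks whether the drug label goes with a change in this protease system. It is a different contrast from the GN average named in the choice of the genes, although they were chosen with earlier results known. In the libraries labelled GN_captopril, 6 of the 9 were lower than in GN_water and 1 was higher, against 25.5% of all tested genes called lower and 19.6% called higher. The median log2 fold change was -0.80 over the 9 and -0.05 over all tested genes. Mmp7 was lower by a log2 fold change of -1.99 ± 0.42 (edgeR quasi-likelihood adjusted p = 0.00178), with a mean and SD over 3 libraries of 0.417 ± 0.200 CPM in GN_captopril and of 1.64 ± 0.327 CPM in GN_water. Timp1 was lower by -1.08 ± 0.26 (edgeR adjusted p = 0.00462), at 2.72 ± 0.422 CPM in GN_captopril and 5.73 ± 0.409 CPM in GN_water. Both genes had no overlap between the groups. Mmp7 entered the test through GN_water, where it is high, since 1 of 3 GN_captopril libraries was above the cutoff, so its p is given as a description and supports nothing. Mmp7 is 1 of the 6 lower genes, so that count is a description as well.

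The pair that acts together at the cell surface was lower too. Mmp14 had a log2 fold change of -0.80 ± 0.14 (edgeR adjusted p = 0.000624), at 25.5 ± 4.15 CPM in GN_captopril and 44.3 ± 4.42 CPM in GN_water. Mmp2 had -0.92 ± 0.20 (edgeR adjusted p = 0.00260), at 10.2 ± 4.14 CPM in GN_captopril and 19.3 ± 1.19 CPM in GN_water. For both, every GN_captopril library lay below every GN_water library. Timp2, the third protein of that complex, had -0.55 ± 0.15 (edgeR adjusted p = 0.0103), at 87.1 ± 23.2 CPM in GN_captopril and 127 ± 15.04 CPM in GN_water. Its GN_captopril libraries all lay lower, the nearest pair being 111 and 114 CPM, and without GN_water replicate 2 its adjusted p was 0.0708 (range over alternatives 0.000527 to 0.0708).

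Mmp3 was lower by -1.002 ± 0.349 (edgeR adjusted p = 0.0321), but its groups overlapped at 1.73 CPM in GN_captopril and 1.63 CPM in GN_water. It no longer passed without GN_captopril replicate 2 (-0.82, adjusted p = 0.125), GN_captopril replicate 3 (-0.92, 0.0795), GN_water replicate 1 (-1.04, 0.0532) or GN_water replicate 2 (-0.57, 0.211). The same held under DESeq2 (-0.97, adjusted p = 0.0570) and without both adrenal-rich libraries (-0.92, 0.0925), within a range over alternatives of 0.0118 to 0.211. Timp3 went the other way, higher by 0.61 ± 0.08 (edgeR adjusted p = 4.94e-05), at 2775 ± 337 CPM in GN_captopril and 1824 ± 69.2 CPM in GN_water, with no overlap. Mmp13 and Mmp9 did not pass. For Mmp13 the difference was 0.77 ± 0.40 (edgeR adjusted p = 0.129), and its 95% interval reached from 0.943-fold to 3.08-fold. For Mmp9 it was 0.11 ± 0.47 (edgeR adjusted p = 0.869), from 0.532-fold to 2.19-fold. The highest Mmp9 value, 4.81 CPM, was in GN_captopril replicate 3, the library with the most fat and, within its group, the most adrenal and macrophage marker counts; without it the Mmp9 difference was -0.78 (adjusted p = 0.133, range over alternatives 0.133 to 0.995).

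Macrophage and fibroblast marker sums were lower in every GN_captopril library than in every GN_water library, by the ranges given above, and the sex-linked transcripts split the same way. The part of either in these 7 calls was not tested.

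In controls, Timp3 alone of the 9 passed the test between captopril and water, against 17% of all tested genes called lower and 15.4% called higher. It was lower in the libraries labelled Control_captopril by -0.38 ± 0.08 (edgeR adjusted p = 0.00257), at 2135 ± 26.2 CPM in Control_captopril and 2772 ± 198 CPM in Control_water. The direction was the opposite of that within GN, as were the Ren1 and sex-linked differences. For Timp1 the difference was -0.02 ± 0.43, with a 95% interval from 0.518-fold to 1.88-fold, at 0.515 ± 0.308 CPM in Control_captopril and 0.532 ± 0.225 CPM in Control_water. Intervals of the more abundant genes were narrower. Mmp14 ran from 0.840-fold to 1.34-fold, Mmp2 from 0.763-fold to 1.498-fold and Timp2 from 0.896-fold to 1.42-fold. Mmp13 ran from 0.842-fold to 1.72-fold. Mmp9 was higher in all 3 Control_captopril libraries than in all 3 Control_water libraries, with a log2 difference of 0.65 ± 0.61 that did not pass (edgeR adjusted p = 0.456). Mmp3 had 20 counts in all in Control_captopril and 16 in Control_water, with an interval from 0.456-fold to 2.45-fold. Mmp7 had 3 counts in Control_captopril and 6 in Control_water, and no fold is given.

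Averaged over GN and controls, where sex-linked transcripts balance, 0 of the 9 differed by captopril label under edgeR's adjusted p, against 3.17% of all tested genes called higher and 3.34% called lower. At an unadjusted edgeR p under 0.05 there were 4 of the 9, Mmp2, Mmp7, Mmp13 and Mmp14. The share of all genes at that threshold is not given here, so nothing is read from this count. DESeq2 called 1 of the 9, Mmp14, beside 1284 of all genes, and limma on RPKM called 1, Mmp7, beside 900. The main fit called 952 of all genes. Mmp7 entered the test through GN_water and had 3 counts in all in Control_captopril and 6 in Control_water. Its values in this contrast are therefore a description and support nothing. The same contrast is also the GN effect of the Xist pair (GN_water against Control_captopril) minus that of the Y-linked pair (GN_captopril against Control_water), with its sign turned and divided by 2. Mmp14 had a log2 fold change of -0.36 ± 0.11 (edgeR adjusted p = 0.0640), with a 95% interval from 0.666-fold to 0.917-fold. For Mmp7 it was -1.58 ± 0.53 (edgeR adjusted p = 0.0932), and for Mmp2 -0.41 ± 0.15 (edgeR adjusted p = 0.120). Mmp13 had 0.52 ± 0.23 (edgeR adjusted p = 0.193) and Timp1 -0.55 ± 0.25 (edgeR adjusted p = 0.210). In all, 6 of the 9 had values below 0, and Mmp9, Mmp13 and Timp3 had values above 0. These values hold for the labels as given: Ren1 goes against them in controls, and with Control_captopril and Control_water exchanged this contrast would be the interaction divided by 2, which sets libraries with Y-linked transcripts against those with Xist. Without GN_captopril replicate 3 the count of the 9 called was 3, beside 1074 of all genes called in that setting. The 3 were Mmp2 (edgeR adjusted p = 0.0102, range over alternatives 0.0102 to 0.230), Mmp14 (0.0400, range 0.0277 to 0.160) and Timp3 (0.0389, range 0.0389 to 0.426). Without Control_captopril replicate 2 the count was 1, Mmp14 (edgeR adjusted p = 0.0277), beside 876 of all genes.

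The interaction, GN_captopril against GN_water minus Control_captopril against Control_water, was called in 4 of the 9, with 1 higher and 3 lower, against 23.6% of all tested genes called higher and 27.1% called lower. It sets the 6 libraries with Y-linked transcripts against the 6 with Xist, so that sex and a differing response to captopril cannot be told apart. Timp3 had 0.98 ± 0.11 (edgeR adjusted p = 9.08e-06). Mmp2 had -1.01 ± 0.30 (edgeR adjusted p = 0.0134), Mmp14 -0.89 ± 0.21 (edgeR adjusted p = 0.00365) and Timp2 -0.73 ± 0.22 (edgeR adjusted p = 0.0135). For Timp1 the value was -1.06 ± 0.51 (edgeR adjusted p = 0.0968), with a 95% interval from 0.225-fold to 1.02-fold; without Control_captopril replicate 1 its adjusted p was 0.0321 (range over alternatives 0.00884 to 0.426).

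**Figure D3:**
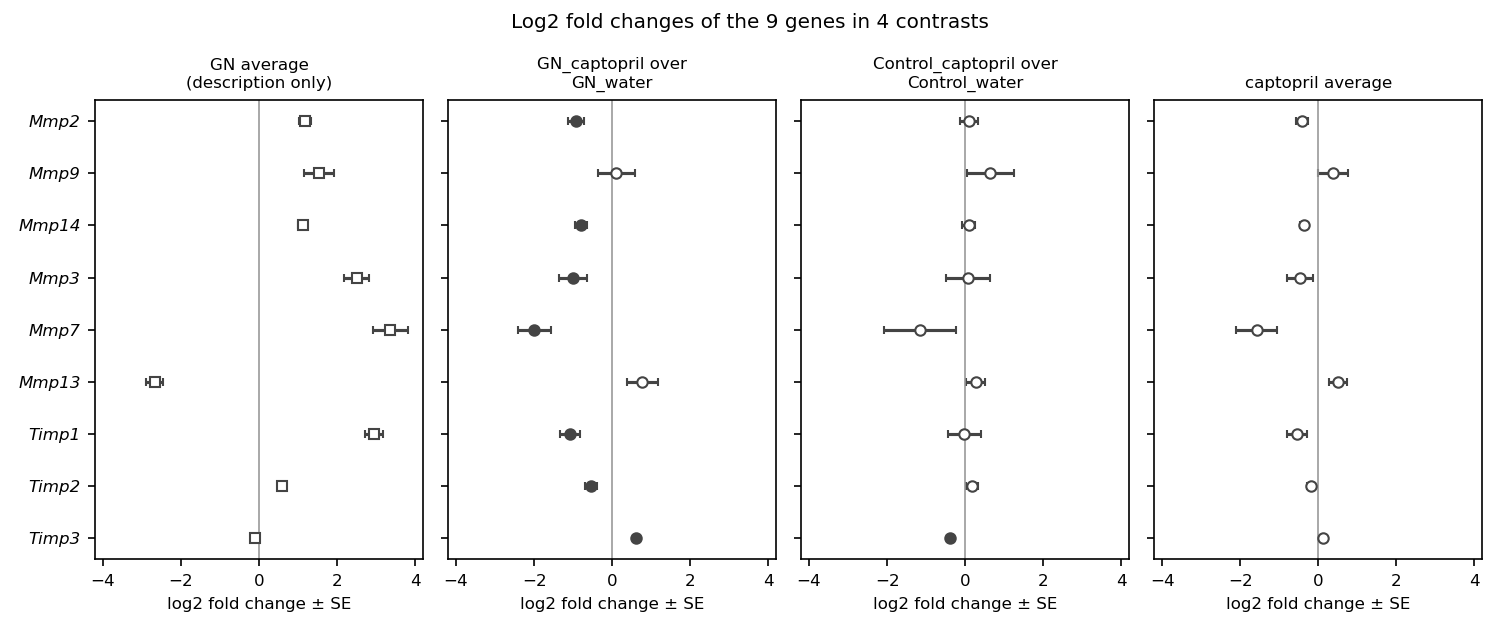
Log2 fold change and SE of each of the 9 genes in 4 contrasts; squares give the GN average, a description with no test, filled circles passed edgeR's adjusted p under 0.05 and open circles did not. Between GN_captopril and GN_water 7 genes are filled, between Control_captopril and Control_water Timp3 alone, and in the captopril average 0. The 7 include Mmp7, which entered the test through GN_water, where it is high.

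The wider pathway was described by 8 lists of other genes, 82 symbols of which 64 had enough counts to be tested; the lists were drawn up with earlier results known, so their counts are not independent evidence of a direction. In the GN average 30 of the 64 were called higher and 3 lower, beside the 16.3% and 14.6% given above for all genes, with a median log2 fold change of 0.27 against -0.01. Of 7 other metalloproteinases tested, 5 were higher, among them Mmp19, a secreted protease, at 2.28 ± 0.30 (edgeR adjusted p = 8.85e-05). Mmp12, the macrophage elastase, was at 2.95 ± 1.48 CPM in GN_captopril, 5.98 ± 1.56 CPM in GN_water, 2.01 ± 0.503 CPM in Control_captopril and 1.86 ± 0.744 CPM in Control_water, a log2 fold change of 1.13 ± 0.25 (edgeR adjusted p = 0.00412). Mmp23 was higher by 0.44 ± 0.11 (edgeR adjusted p = 0.00972).

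Of the 4 other inhibitors tested, 0 passed under edgeR, DESeq2 or limma, and 0 had an unadjusted edgeR p under 0.05. Their log2 fold changes in the GN average ran from -0.13 ± 0.07 for Tfpi2 to 0.44 ± 0.31 for Pzp. Pzp, a protease-trapping plasma protein of the alpha-2-macroglobulin family, was at 118 ± 18.1 CPM in GN_captopril and 126 ± 12.4 CPM in Control_water, and at 0.391 ± 0.270 CPM in GN_water and 0.204 ± 0.0709 CPM in Control_captopril. Tfpi2, an inhibitor of plasmin and other serine proteases, was split the same way in the opposite direction, at 12.8 ± 1.42 CPM in GN_captopril and 14.3 ± 1.59 CPM in Control_water, and at 22.4 ± 1.08 CPM in GN_water and 23.9 ± 1.93 CPM in Control_captopril. Both divided the libraries as the sex-linked transcripts do.

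Of 16 ADAM and ADAMTS proteases, 6 were higher and 1 lower. Adam19 had 1.34 ± 0.15 (edgeR adjusted p = 1.99e-05), Adam8, known from leukocytes, 2.29 ± 0.27 (edgeR adjusted p = 3.31e-05), and Adamts2, which trims the amino-terminal propeptide of fibrillar procollagens, 0.94 ± 0.11 (edgeR adjusted p = 2.85e-05). Mean Adam8 was 0.370 CPM in Control_captopril and 0.495 CPM in Control_water, under the filter cutoff of 0.523 CPM. Its means were 1.79 CPM in GN_captopril and 2.52 CPM in GN_water. The p of Adam8 and its place in the counts of higher genes are therefore a description. Of 4 astacin proteases 1 was higher, Bmp1, which removes the carboxy-terminal propeptide of procollagens. Its log2 fold change was 0.26 ± 0.07 (edgeR adjusted p = 0.0103), but its means of 12.9 CPM in GN_captopril, 21.9 CPM in GN_water, 17.7 CPM in Control_captopril and 11.1 CPM in Control_water were high in both Xist groups.

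Among 7 plasminogen activation genes, 3 were higher and 1 lower. Plaur, the urokinase receptor, had 0.71 ± 0.13 (edgeR adjusted p = 0.000912) and Serpine2, a serine protease inhibitor, 0.44 ± 0.06 (edgeR adjusted p = 0.000172). Of 10 genes for activation and induction at the cell surface, 2 were higher, Ddr2, a collagen receptor kinase, at 0.69 ± 0.07 (edgeR adjusted p = 1.66e-05) and Itgb3, an integrin subunit, at 0.69 ± 0.15 (edgeR adjusted p = 0.00408). In that list 1 was lower, Pcsk5, a proprotein convertase, at -0.22 ± 0.07 (edgeR adjusted p = 0.0314).

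Of 9 AP-1, ETS and RUNX transcription factors, 8 were higher, including Runx1 at 1.34 ± 0.17 (edgeR adjusted p = 7.32e-05), Junb at 0.65 ± 0.12 (edgeR adjusted p = 0.000899) and Ets1 at 0.35 ± 0.06 (edgeR adjusted p = 0.000743). Of 7 genes of interleukin-6 family signalling, which is known to induce Timp1 in other cells, 5 were higher. Socs3, its feedback inhibitor, had 1.66 ± 0.15 (edgeR adjusted p = 4.91e-06), Osmr, the oncostatin M receptor, 0.83 ± 0.07 (edgeR adjusted p = 2.15e-06) and Stat3, its transcription factor, 0.33 ± 0.06 (edgeR adjusted p = 0.000689). The macrophage and fibroblast markers described above were also higher in GN, and their part in these counts was not tested.

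By captopril label, averaged over GN and controls, 1 of the 64 was higher and 7 were lower, beside 3.17% and 3.34% of all tested genes, with a median log2 fold change of -0.11 against -0.02 over all tested genes. Those lower were Mmp15, Adam12, Adam15, Adamts1, Adamts2, Adamts4 and Serpine2, and Lifr, the leukemia inhibitory factor receptor, was higher. They were named because they made up the count and were chosen after their values were seen. Adamts4, an aggrecan-cleaving protease, had the largest, -0.93 ± 0.15 (edgeR adjusted p = 0.00407), at 1.21 ± 0.242 CPM in GN_captopril against 3.39 ± 0.352 CPM in GN_water, and 1.70 ± 0.349 CPM in Control_captopril against 2.24 ± 0.307 CPM in Control_water. Adam12 had -0.58 ± 0.13 (edgeR adjusted p = 0.0189), Mmp15, a membrane-type metalloproteinase, -0.45 ± 0.11 (edgeR adjusted p = 0.0273) and Lifr 0.17 ± 0.04 (edgeR adjusted p = 0.0312). Within controls, mean Adamts1 was higher in Control_captopril (34.0 CPM) than in Control_water (27.4 CPM). Adam12 was nearly level there, at 4.69 and 4.85 CPM. The means of the other genes called lower were lower in Control_captopril. The count of 8 depended on single libraries: it was 4 without GN_captopril replicate 1, Control_captopril replicate 3 or Control_water replicate 2, and 5 without GN_water replicate 2, GN_water replicate 3 or Control_water replicate 3.

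**Figure D4:**
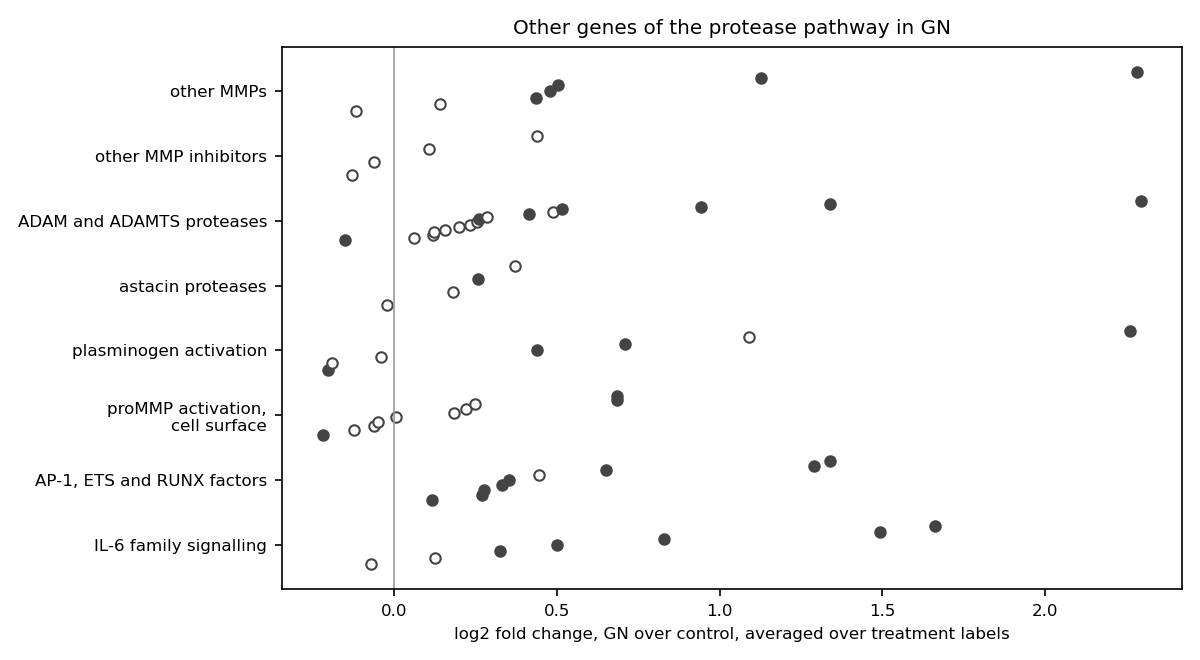
Log2 fold change in the GN average for the 64 tested genes of 8 lists, with 1 point per gene, filled where edgeR's adjusted p was under 0.05. Of the 64, 30 are filled right of 0 and 3 left of it, and the 4 other inhibitors are all open.

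Genes whose pattern lay nearest to that of Mmp13 and Timp1 were ranked by the root mean square difference of log2 CPM over the 12 libraries, each gene centred on its own mean, among 12866 genes with a mean of at least 1 CPM. For Timp1 the nearest were Ms4a6c (0.363), Siglec1 (0.376), Clec4a1 (0.379), Igsf6 (0.384) and Ccl5 (0.392), against a median of 1.51 over all candidates. Ms4a6c averaged 12.9 CPM in GN_captopril, 24.0 in GN_water, 3.09 in Control_captopril and 2.999 in Control_water. For Mmp13 the nearest were Cyp2d12 (0.815), Dnase1 (0.823), Nuak2 (0.873), Hey1 (0.913) and Esm1 (0.924), against a median of 1.28. Cyp2d12 averaged 111 CPM in GN_captopril, 55.5 in GN_water, 171 in Control_captopril and 185 in Control_water. Timp1 thus had close neighbours in pattern, while the best match of Mmp13 differed by more than any of the 5 named for Timp1.

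Some counts can hold reads of another gene, because the strand setting of the counting is not given in the sources used here. Timp1 lies within Syn1 and Timp3 within Syn3, both on the opposite strand, with 2 to 15 counts for Syn1 and 183 to 890 for Syn3. Timp3 had 33300 to 64410 counts, but Timp1 had 6 to 17 in control libraries, about as few as Syn1, and 40 to 137 in GN libraries. Timp2 overlaps Cep295nl on its own strand. Mmp7 overlaps AV064505, an antisense gene with 0 counts in every library. Mmp3 counts were not whole numbers in GN_water, so some of its reads were divided between features.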

How the data were processed

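The authors deposited expected counts per gene, which need not be whole, and RPKM values for the 12 libraries. Bowtie2, Partek and the mm10 build are named in the submitters' processing notes; software versions, annotation and strand setting are not given there. In each library 85.1% to 87.5% of the deposited counts were whole numbers, and they were rounded. R 4.3.3 with edgeR 4.0.16 fitted 1 mean per labelled group to all 12 libraries (TMM scaling, filterByExpr with a minimum count of 10, quasi-likelihood test, Benjamini-Hochberg adjustment over 14618 genes, threshold 0.05). CPM uses TMM-adjusted library sizes; exon lengths and coordinates are from GENCODE M21 on GRCm38. Alternatives were DESeq2 1.42.0, limma 3.58.1 on log2(RPKM + 0.1), other scaling, no filter, each library left out, both adrenal-rich libraries left out, and a block on title numbers. The script was tested on simulated data.

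The 9 genes and all lists were chosen with earlier results of these data known. Of each wider list, the text names the 3 called genes with the smallest adjusted p in the GN average, or the 2 most abundant where none was called, and for Mmp13 and Timp1 the 5 nearest in pattern. A gene that this rule also names is not reported here. Low-count values carry counting error beside the spread between libraries.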

Additional observations from a re-analysis of the deposited data

Results flagged for a closer look

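The GN effect in the captopril-labelled libraries (GN_captopril against Control_captopril) differed from that in the water-labelled libraries (GN_water against Control_water) in 4 of the 9 genes, by edgeR's test of the difference itself, with 1 higher and 3 lower. The share is near the background: 23.6% of all tested genes were called higher and 27.1% lower. The difference, on the log2 scale, was -1.01 for Mmp2, -0.89 for Mmp14, -0.73 for Timp2 and 0.98 for Timp3. The label-matched GN effects behind them were 0.68 ± 0.22 and 1.69 ± 0.21 (SE) for Mmp2, 0.67 ± 0.15 and 1.56 ± 0.15 for Mmp14, 0.22 ± 0.15 and 0.95 ± 0.15 for Timp2, and 0.38 ± 0.08 and -0.60 ± 0.08 for Timp3, the captopril-labelled value first in each pair. In each label-matched comparison 1 group carries Y-linked transcripts and the other Xist, so the drug label and sex cannot be told apart in these differences.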

How the results depend on the processing

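Mmp7, which entered the test through GN_water, is kept in the counts below. The count of the 9 genes called was 7 between GN_captopril and GN_water (5 to 7 with 1 library left out, 6 under DESeq2) and 1 between Control_captopril and Control_water (1 to 1). In the captopril average it was 0, but 1 under DESeq2, 1 under limma, 1 without both adrenal-rich libraries and 0 to 3 with 1 library left out. Over all genes DESeq2 called 1284 there, limma 900 and the fit without both adrenal-rich libraries 806. In the interaction the count of the 9 was 4, but 7 under limma and 4 to 5 with 1 library left out. Over all genes the interaction was called in 7406, and in 7521 under limma. Wider-list calls in the captopril average, 8, were 4 without both adrenal-rich libraries and 4 to 10 with 1 left out, and calls over all genes there, 952, ran from 523 to 1471.

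Signs that turned were all of values short of the threshold. For Mmp9 in GN_captopril against GN_water the value was -0.12 under limma, -0.78 without both adrenal-rich libraries and -0.78 to 0.62 with 1 left out; in the captopril average it was -0.049 and -0.063 to 0.64 under these last settings. In Control_captopril against Control_water, leaving out 1 library gave -0.0011 to 0.16 for Mmp2, -0.22 to 0.51 for Mmp3, -0.074 to 0.23 for Mmp14 and -0.58 to 0.29 for Timp1, whose limma value was 0.014. Mmp13 in the interaction was -0.10 under limma. On log2(RPKM + 0.1), which compresses low values, the GN averages were 1.07 for Mmp3, 1.15 for Mmp7, -1.26 for Mmp13 and 2.22 for Timp1.

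Of 18 pairs of libraries with the same title number, 4 correlated over 0.1 (range -0.235 to 0.236, against -0.280 to 0.297 for other pairs). Of the 12 libraries, 6 correlated best with their own number. Pairing that leaves no shared deviation would not show here, so it was not settled if the numbers pair libraries. With a replicate block the counts of the 9 genes called stayed at 7, 1, 0 and 4. Of the single-gene values under other settings, 253 stayed the same, 5 turned sign, 6 came to pass the threshold and 2 no longer passed it. A further 4 shifted beyond the limit given below for the GN average. With 1 library left out, 519 stayed the same, 11 turned sign, 5 came to pass and 5 no longer passed. In the tested contrasts, the same means that direction and side of the threshold were kept. In the GN average, which has no test, it means the same direction and a shift below the SD within groups. Low counts limit Mmp3, Mmp7, Mmp9, Mmp13 and Timp1. The cause of the changes was not tested.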
